A study of Mus musculus with 13 samples.

Results

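The genes described here build the autophagosome and the lysosome of S1 proximal tubule segments of the mouse kidney. They were chosen by name, with earlier results of these data known. Counts set beside shares over all genes therefore describe the list and do not test it. The list held 39 genes. Each was represented by the probe set that carried its symbol alone and had the highest mean over all arrays. Of these, 37 were measured, among 22180 genes tested. Bnip3l, a mitophagy receptor, and Glb1, the lysosomal beta-galactosidase, had only probe sets with several symbols and were not analysed. The measured genes comprised 16 of the autophagosome, 5 of the lysosomal membrane, 10 lysosomal hydrolases and lumenal proteins, 5 of the vacuolar proton pump, and Tfeb, a transcriptional regulator of both compartments.

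Affymetrix arrays were run on S1 segments of male C57Bl/6J mice whose ages were not given. In the LPS/LPS group, with 5 arrays, mice were preconditioned with 0.25 mg/kg lipopolysaccharide of serotype 0111:B4 (labelled 5 ug). They were given 5 mg/kg (labelled 100 ug) 24 h later and were studied 24 h after that second dose. In the LPS group, with 4 arrays, mice received the single dose of 5 mg/kg (labelled 100 ug) into the peritoneum and were studied at 24 h. In the control group, with 4 arrays, mice received the same volume of saline and were titled sham. Nothing in the labels says that every array was made from a different animal, so each p-value speaks only of how far these samples differ among themselves, a spread that may be technical. The comparison of LPS/LPS with LPS asks how preconditioning changed the response to the same challenge, and the comparison of LPS with control asks what the challenge did on its own.

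Autophagy encloses cytoplasm, aggregates and damaged mitochondria in a double membrane, the autophagosome, which then fuses with the lysosome. Lysosomal cathepsins and other hydrolases digest the contents at the acid pH that the vacuolar proton pump maintains. Proximal tubule cells rely on this route heavily, since they also reclaim filtered protein by endocytosis and deliver it to lysosomes. TFEB and its relatives bind CLEAR elements, whose core is the E-box CACGTG, in promoters of many lysosomal genes.

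Promoter windows from RefSeq (build GRCm38.p6), reaching from 250 bases before the gene start to 50 after it, were supplied for 30 of the 39 listed genes. The palindromic core CACGTG, which reads the same on both strands, stood in the windows of 11 of the 30 genes (36.7%), against 2187 of 27025 genes with a window (8.09%). With a T before it or an A after it, the core stood in 8 (26.7%), against 1160 genes (4.29%). It was found in 4 of 12 autophagosome genes, 4 of 9 hydrolase and lumenal genes, 1 of 4 membrane genes and 2 of 4 pump genes, and in no window of Tfeb. The last 150 bases before the gene start are shown for Lamp1 (chr8:13159011-13159160, plus strand), Ctsd (chr7:142387828-142387977, minus strand), Ctsa (chr2:164833623-164833772, plus strand) and Gabarapl1 (chr6:129533042-129533191, plus strand). Lamp1 is shown for its repeated cores, Ctsd and Ctsa as cathepsin genes with 1 core in the stretch, and Gabarapl1 because it had the lowest p of the measured genes and no core. Capitals mark CACGTG.
Lamp1: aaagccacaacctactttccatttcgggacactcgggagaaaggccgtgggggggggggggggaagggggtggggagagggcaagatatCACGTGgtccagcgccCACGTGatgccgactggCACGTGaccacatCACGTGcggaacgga
Ctsd: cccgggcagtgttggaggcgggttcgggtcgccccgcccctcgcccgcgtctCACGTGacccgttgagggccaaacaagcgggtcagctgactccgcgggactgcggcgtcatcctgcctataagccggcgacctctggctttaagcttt
Ctsa: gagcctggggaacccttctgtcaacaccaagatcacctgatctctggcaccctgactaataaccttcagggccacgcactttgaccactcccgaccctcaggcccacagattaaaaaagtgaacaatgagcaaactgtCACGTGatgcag
Gabarapl1: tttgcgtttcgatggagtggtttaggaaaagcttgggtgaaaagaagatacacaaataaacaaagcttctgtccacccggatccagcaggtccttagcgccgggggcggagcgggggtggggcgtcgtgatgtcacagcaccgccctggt
In Lamp1 the cores began 61, 45, 28 and 15 bases before the gene start, in Ctsd 98 bases and in Ctsa 12 bases before it. Ctsa has a further RefSeq start whose window held no core. A match to these letters is a description of the sequence, and no match says only that the letters are not in the window.

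The values are RMA log2 values, a level summarised over the probes of a probe set. Array medians lay between 3.555 and 3.68, and the standard deviation (SD) of an array's log2 values between 1.28 and 1.42. Arrays were split after their values were seen into 7 wide arrays (LPS/LPS replicates 1 and 5, LPS replicates 2, 3 and 4, control replicates 1 and 4) and 6 narrow ones by that SD. LPS replicate 3 stood apart. Its mean level over 9 markers of the loop of Henle, distal tubule and principal cells was 5.18, against 3.89 to 4.17 on the other 12 arrays, and 6 of the 9 were higher there than on every other array. Umod, the loop protein uromodulin, stood at 8.36 there and at 4.28 to 6.77 on the others, and Slc12a1, the loop's salt transporter, at 6.79 against 3.24 to 4.20. Intercalated cell markers, which include kidney-specific pump subunits, averaged 4.54 there and 3.73 to 4.02 on the others. Of these 8 markers, 3 were higher there than on every other array, among them Atp6v1g3 at 6.33 against 3.10 to 4.05. The mean over proximal tubule S1 and S2 markers was also highest on that array, at 6.29. Values without LPS replicate 3 stand beside the main counts, role medians and the genes described at length.

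The S1 label was checked against 12 S1 and S2 markers, of which 7 lay above background. Their highest was Slc34a1, the apical phosphate transporter, with a mean log2 level of 10.1. Background was taken as log2 4.77, the 95th percentile of mean level among 1105 olfactory receptor genes, and 2207 genes tested (9.95%) had a mean above it. Of the 37 autophagy and lysosome genes, 16 lay above it and 21 below. Signal that does not come from the gene compresses differences of dim genes. For 11222 genes (50.6%), at least 2 arrays shared exactly the same value, and this held for 15 of the 37 (40.5%). The lysosomal lipase gene Lipa read 4.367 on 7 arrays, and the pump gene Atp6v1a read 3.522 on 5. In such bulk segments, fewer cells of a type and less RNA per cell cannot be told apart.

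Averaged over the 37 genes, the log2 level was 4.40 in LPS/LPS, 4.89 in LPS and 4.60 in control. LPS had the highest of the 3 group means in 28 genes and LPS/LPS the lowest in 28, while Npc2, Tfeb, Becn1 and Ulk1 were highest in LPS/LPS. The mean over the genes was 4.14 to 4.51 over the LPS/LPS arrays, 4.61 to 5.32 over the LPS arrays and 4.46 to 4.75 over the control arrays. The LPS/LPS arrays all lay below the LPS arrays, while LPS and control overlapped. On LPS replicate 3, 28 of the 37 genes exceeded their own mean over all arrays, and on LPS/LPS replicate 5, 4 did. LPS replicate 3 held the highest of all 13 values for 18 of the 37 genes (48.6%), against 8.89% of genes tested. LPS/LPS replicate 5 held the lowest for 12 (32.4%), against 12% of genes tested.

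**Figure D1:**
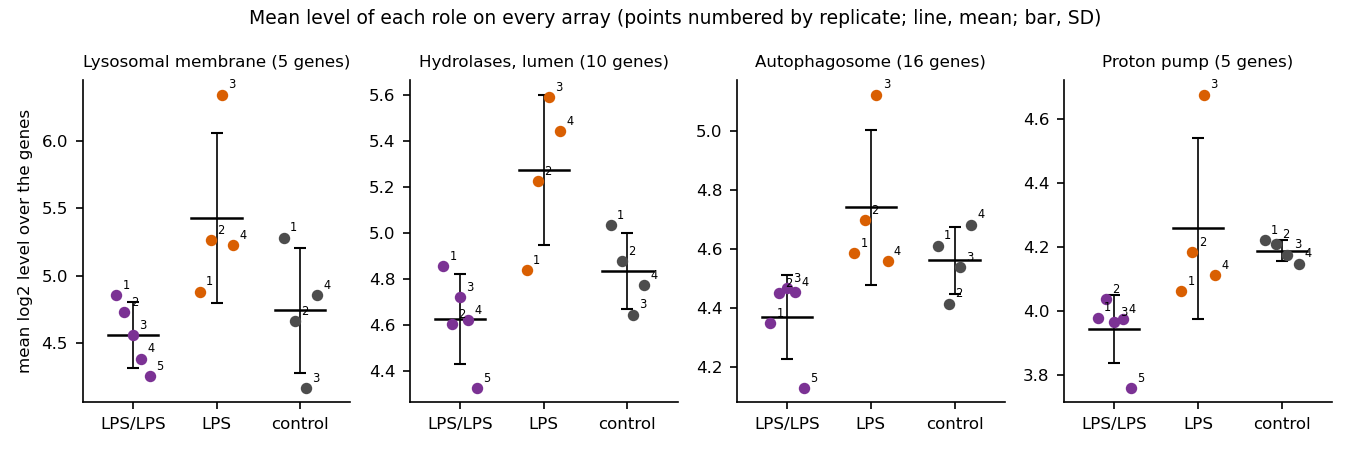
Mean log2 level of the lysosomal membrane, hydrolase and lumenal, autophagosome and proton pump genes on every array in 4 panels, with LPS/LPS, LPS and control from left to right; points are arrays numbered by replicate, horizontal lines group means and vertical bars SD. Lysosomal membrane genes average 4.25 to 4.86 on the LPS/LPS arrays, 4.88 to 6.34 on the LPS arrays and 4.17 to 5.28 on the control arrays, and LPS replicate 3 is the highest LPS array in each of the 4.

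In LPS/LPS against LPS, most of the genes were lower after preconditioning, and none passed the test across all genes. Of the 37, 32 had a negative log2 difference, against 40.7% of genes tested, and the median difference was -0.33, against 0.05 over all genes. Limma called 14 of the 22180 genes (0.0631%) at a Benjamini-Hochberg adjusted p under 0.05, all lower, and 0 of the 37, whose lowest adjusted p was 0.157. Before adjustment, 15 of the 37 were lower at a limma p under 0.05, where 4.49% of genes tested were, and 1 was higher, where 4.13% were. Most genes tested are dim. Of the 16 above background, 11 were lower at that p, beside 267 of all 2207 genes above background. The arrays compared helped to set which genes lie above it, so these counts are not a test. Ctsa, among the 11, averaged above background only in LPS, at 5.35, against 4.52 in LPS/LPS and 4.70 in control. In 6 of the 37 the LPS/LPS arrays all lay below the LPS arrays, which held for 1.3% of genes tested: Gabarapl1, Cd63, Ctsa, Ctsd, Ctsh and Ctsl.

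Without LPS replicate 3, the median over the 37 genes was -0.22, and 10 were lower and 1 higher before adjustment, where 3.49% and 2.67% of genes tested were. The LPS/LPS arrays lay below the LPS arrays in the same 6 genes, against 1.95% of genes tested. Leaving out an array cannot make separate groups overlap, so these 6 could not drop out. Limma called 11 genes (0.0496%), 0 of them among the 37, with a lowest adjusted p of 0.345. The median was -0.51 among wide arrays and -0.05 among narrow arrays, and the narrow arrays hold only 1 LPS array. S1 and S2 markers moved with this comparison: their mean level was 4.50 to 5.22 on the LPS/LPS arrays and 4.62 to 6.29 on the LPS arrays. All 12 had a negative difference with a median of -0.48, or 10 of 12 and -0.29 without LPS replicate 3. With all arrays 5 of the 12 were lower at a limma p under 0.05 before adjustment, where 4.49% of genes tested were. Without LPS replicate 3, 2 were, against 3.49%. The part of these 12 markers in the result was not tested.

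Among the 16 autophagosome genes, 13 had negative differences and 4 were lower at a p under 0.05 before adjustment, with a median of -0.18; without LPS replicate 3 the median was -0.10, with 2 lower. The 5 genes of the Atg8 family, small proteins joined to lipid on the autophagosome membrane, had a median of -0.90, or -0.58 without that array. Gabarapl1, a GABARAP-type Atg8 protein, read 3.97, 5.08, 4.46, 4.85 and 4.90 on the LPS/LPS arrays, 5.70, 6.58, 7.50 and 5.92 on the LPS arrays, and 7.26, 5.32, 6.18 and 6.44 on the control arrays. The LPS/LPS arrays lay below both other groups without overlap, and LPS and control overlapped. It averaged 4.65 ± 0.44 in LPS/LPS (SD, n = 5) and 6.43 ± 0.81 in LPS (SD, n = 4), a log2 difference of -1.78 (SE 0.40, limma adjusted p = 0.157). Without LPS replicate 3 the difference was -1.42 (SE 0.37, limma adjusted p = 0.409), and within wide and narrow arrays it was -2.24 and -0.90.

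Map1lc3b, which encodes the LC3B used to count autophagosomes, averaged 4.98 ± 0.50 in LPS/LPS (SD, n = 5) and 5.88 ± 0.73 in LPS (SD, n = 4). The groups overlapped, and the difference of -0.90 (SE 0.35) had an adjusted p of 0.481 in limma. Gabarap was the least reproducible of the 37, with a pooled within-group SD of 1.41 against a median of 0.34 over the 37 genes and 0.28 over all genes. It read 4.15, 5.27, 7.73, 5.00 and 4.51 in LPS/LPS, 7.48, 6.23, 7.35 and 4.02 in LPS, and 4.82, 4.99, 4.91 and 7.30 in control. Each group held at least 1 array above 7.30 and at least 1 below 5.00, so its difference of -0.94 (SE 0.80), or -0.58 without LPS replicate 3, was within the spread. A second probe set of Gabarap differed by -1.20. Gabarapl2 differed by -0.09, and by 0.25 without LPS replicate 3, and Map1lc3a by -0.25 and -0.20. Map1lc3b differed by -0.60 without that array.

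Sqstm1 encodes p62, the receptor that carries ubiquitinated cargo into the autophagosome. It read 5.74, 4.80, 5.04, 5.52 and 5.20 in LPS/LPS, 5.59, 5.88, 5.92 and 6.72 in LPS, and 6.04, 5.10, 5.05 and 5.59 in control. LPS/LPS and LPS overlapped only through LPS/LPS replicate 1, and the difference of -0.77 (SE 0.27, limma adjusted p = 0.447) was -0.80 without LPS replicate 3. The mitophagy genes Pink1 and Bnip3 differed by -0.09 and -0.13, and by -0.03 and 0.05 without LPS replicate 3. Of the 8 genes of initiation and conjugation, 5 were lower and 3 higher, with a median of -0.07, or -0.02 without that array. Wipi2, which binds the phosphoinositide of the growing membrane, lay below background. It had the largest of these differences, -0.50 (SE 0.20, limma adjusted p = 0.496), or -0.37 without LPS replicate 3. Atg5, of the conjugation complex, differed by -0.40 with all arrays and by -0.003 without LPS replicate 3, on which it read 4.56. Ulk1, the initiating kinase, differed by 0.11 (0.01 without that array), Becn1, a subunit of the lipid kinase complex, by 0.07, and Atg7, the activating enzyme of conjugation, by -0.12.

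**Figure D2:**
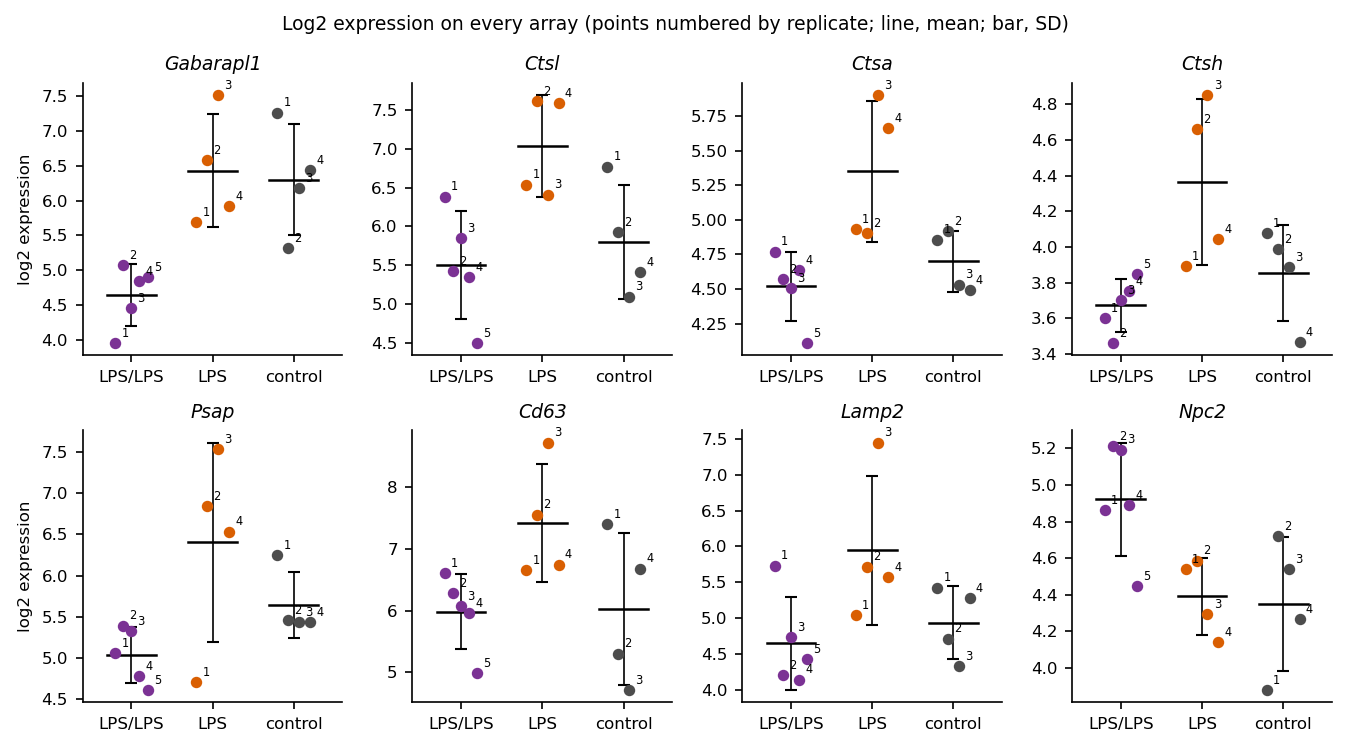
Log2 level of Gabarapl1, Ctsl, Ctsa, Ctsh, Psap, Cd63, Lamp2 and Npc2 on every array, with LPS/LPS, LPS and control from left to right; points are arrays, horizontal lines group means and vertical bars SD. Gabarapl1 lies at 3.97 to 5.08 in LPS/LPS, below 5.70 to 7.50 in LPS and 5.32 to 7.26 in control, whereas Npc2, a gene below background, is highest in LPS/LPS.

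All 5 lysosomal membrane genes were lower in LPS/LPS than in LPS, with a median of -1.20 and 3 at a p under 0.05 before adjustment; without LPS replicate 3 the median was -0.76 with 1 at that p. Cd63, a tetraspanin of late endosomes and lysosomes, read 6.6, 6.28, 6.07, 5.96 and 4.99 in LPS/LPS, 6.65, 7.55, 8.71 and 6.74 in LPS, and 7.40, 5.31, 4.72 and 6.68 in control. The LPS/LPS arrays all lay below the LPS arrays, by a margin that was narrow between LPS/LPS replicate 1 and LPS replicate 1, and the control arrays spread across both. The difference was -1.44 (SE 0.54, limma adjusted p = 0.470) and -1.004 without LPS replicate 3. Lamp2, a major membrane glycoprotein that is also needed for autophagosome fusion, read 5.73, 4.20, 4.73, 4.14 and 4.42 in LPS/LPS, 5.04, 5.72, 7.45 and 5.58 in LPS, and 5.42, 4.71, 4.33 and 5.28 in control. LPS/LPS replicate 1 and LPS replicate 3 were each the highest of their group, and LPS/LPS and LPS overlapped through LPS/LPS replicate 1. Its difference was -1.30 (SE 0.44, limma adjusted p = 0.431) with all arrays and -0.80 without LPS replicate 3.

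Lamp1, the other major membrane glycoprotein, whose promoter held 4 cores, read 5.33, 5.03, 5.22, 4.46 and 4.81 in LPS/LPS, 4.95, 5.91, 7.49 and 6.32 in LPS, and 6.67, 5.68, 4.89 and 5.48 in control. LPS replicate 1 lay among the LPS/LPS arrays, and the difference of -1.20 (SE 0.43, limma adjusted p = 0.452) was -0.76 without LPS replicate 3. Scarb2, the receptor that carries glucocerebrosidase to the lysosome, differed by -0.33, and by -0.23 without that array. Npc1, the membrane protein that exports cholesterol, differed by -0.09, and by -0.05 without it. A second, dimmer probe set of Npc1 differed by 0.13 with all arrays, the other way.

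Of the 10 hydrolases and lumenal proteins, 9 were lower in LPS/LPS than in LPS, with a median of -0.76; 6 were lower and 1 higher at a p under 0.05 before adjustment. Without LPS replicate 3 the median was -0.54, with 7 lower and 1 higher. Ctsl, the endopeptidase cathepsin L, read 6.38, 5.43, 5.85, 5.34 and 4.50 in LPS/LPS, 6.54, 7.61, 6.41 and 7.58 in LPS, and 6.77, 5.93, 5.10 and 5.41 in control. All LPS/LPS arrays lay below all LPS arrays, LPS replicates 2 and 4 stood highest, and the control arrays lay mostly among the LPS/LPS arrays. The difference was -1.53 (SE 0.40, limma adjusted p = 0.277), and it was -1.74 without LPS replicate 3, an array on which Ctsl was the lowest of its group.

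Ctsa, the protective protein cathepsin A that stabilises beta-galactosidase and neuraminidase, read 4.77, 4.57, 4.51, 4.64 and 4.11 in LPS/LPS, 4.93, 4.91, 5.90 and 5.66 in LPS, and 4.86, 4.92, 4.53 and 4.49 in control. The LPS/LPS arrays lay below the LPS arrays without overlap, and LPS replicates 3 and 4 stood well above the rest. Its difference was -0.83 (SE 0.21, limma adjusted p = 0.259) and -0.65 without LPS replicate 3. Ctsh, the aminopeptidase cathepsin H, read 3.60, 3.46, 3.70, 3.75 and 3.85 in LPS/LPS, 3.89, 4.66, 4.85 and 4.04 in LPS, and 4.08, 3.99, 3.89 and 3.47 in control. LPS/LPS and LPS did not overlap, although the gene lay below background, and the difference was -0.69 (SE 0.20, limma adjusted p = 0.334), or -0.53 without LPS replicate 3.

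Psap encodes prosaposin, the precursor of the saposins that help hydrolases act on sphingolipids. It read 5.05, 5.39, 5.33, 4.78 and 4.61 in LPS/LPS, 4.70, 6.84, 7.54 and 6.53 in LPS, and 6.25, 5.46, 5.44 and 5.43 in control. LPS replicate 1 lay among the LPS/LPS arrays while the other 3 LPS arrays lay above them. The difference was -1.37 (SE 0.42, limma adjusted p = 0.371) with all arrays and -0.995 without LPS replicate 3. Without LPS replicate 1 it was -1.94 (SE 0.267, limma adjusted p = 0.00933), the one case in which any of the 37 genes passed, and limma then called 96 genes. Within the narrow arrays, whose only LPS array is that replicate, the Psap difference was 0.46.

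Ctsd, the aspartic protease cathepsin D, read 4.49, 4.51, 4.28, 4.515 and 4.15 in LPS/LPS, 4.61, 4.77, 6.46 and 5.46 in LPS, and 5.12, 4.61, 4.33 and 5.27 in control. LPS/LPS lay just below the lowest LPS array, and the difference of -0.94 (SE 0.31, limma adjusted p = 0.431) was -0.56 without LPS replicate 3. Ctsb, the cysteine protease cathepsin B, differed by -0.92 (SE 0.32, limma adjusted p = 0.447), or by -0.56 without that array. Ctsz, a carboxypeptidase, Hexa, a subunit of beta-hexosaminidase, and Lipa differed by -0.20, -0.11 and -0.41.

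Npc2, the soluble cholesterol carrier that hands cholesterol to NPC1, ran the other way, although its mean over all arrays, 4.58, lay below background. It read 4.86, 5.21, 5.19, 4.89 and 4.45 in LPS/LPS, 4.54, 4.59, 4.30 and 4.14 in LPS, and 3.88, 4.72, 4.54 and 4.27 in control. LPS/LPS replicate 5 lay within the other groups and the remaining 4 LPS/LPS arrays lay above every other array. Npc2 averaged 4.92 ± 0.31 in LPS/LPS (SD, n = 5) and 4.39 ± 0.21 in LPS (SD, n = 4). The difference was 0.53 (SE 0.20, limma adjusted p = 0.465), or 0.50 without LPS replicate 3.

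The vacuolar proton pump acidifies the lysosome through a membrane sector, which includes Atp6v0d1, and a cytosolic sector, which includes Atp6v1a, Atp6v1b2 and Atp6v1e1. All 5 pump genes had negative differences, with a median of -0.13, and all but Atp6v1b2 lay below background. Atp6v1e1 differed by -0.71 (SE 0.28, limma adjusted p = 0.496) with all arrays and by -0.37 without LPS replicate 3. The accessory subunit gene Atp6ap1 differed by -0.53 (SE 0.23, limma adjusted p = 0.547), and by -0.31 without that array. Without LPS replicate 3 the pump median was -0.22, 4 of the 5 were negative and 0 had a p under 0.05. Intercalated cells use the same pump to secrete acid. The mean of their markers was highest on LPS replicate 3, though only 3 of the 8 were higher there than on every other array. The part of this in the pump values was not tested. Atp6v1b2 had a second, dimmer probe set, on which the difference was -0.92 in place of -0.13.

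Tfeb itself lay below background. It read 4.69, 4.30, 4.01, 4.74 and 3.70 in LPS/LPS, 4.10, 4.00, 3.99 and 3.80 in LPS, and 3.97, 4.28, 4.14 and 4.03 in control. The LPS/LPS arrays spread on both sides of the other groups. The difference from LPS was 0.31 (SE 0.19, limma adjusted p = 0.678), or 0.32 without LPS replicate 3. The 10 measured genes with a promoter core had a median LPS/LPS minus LPS difference of -0.27, and the 19 with a window but no core had one of -0.50.

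**Figure D3:**
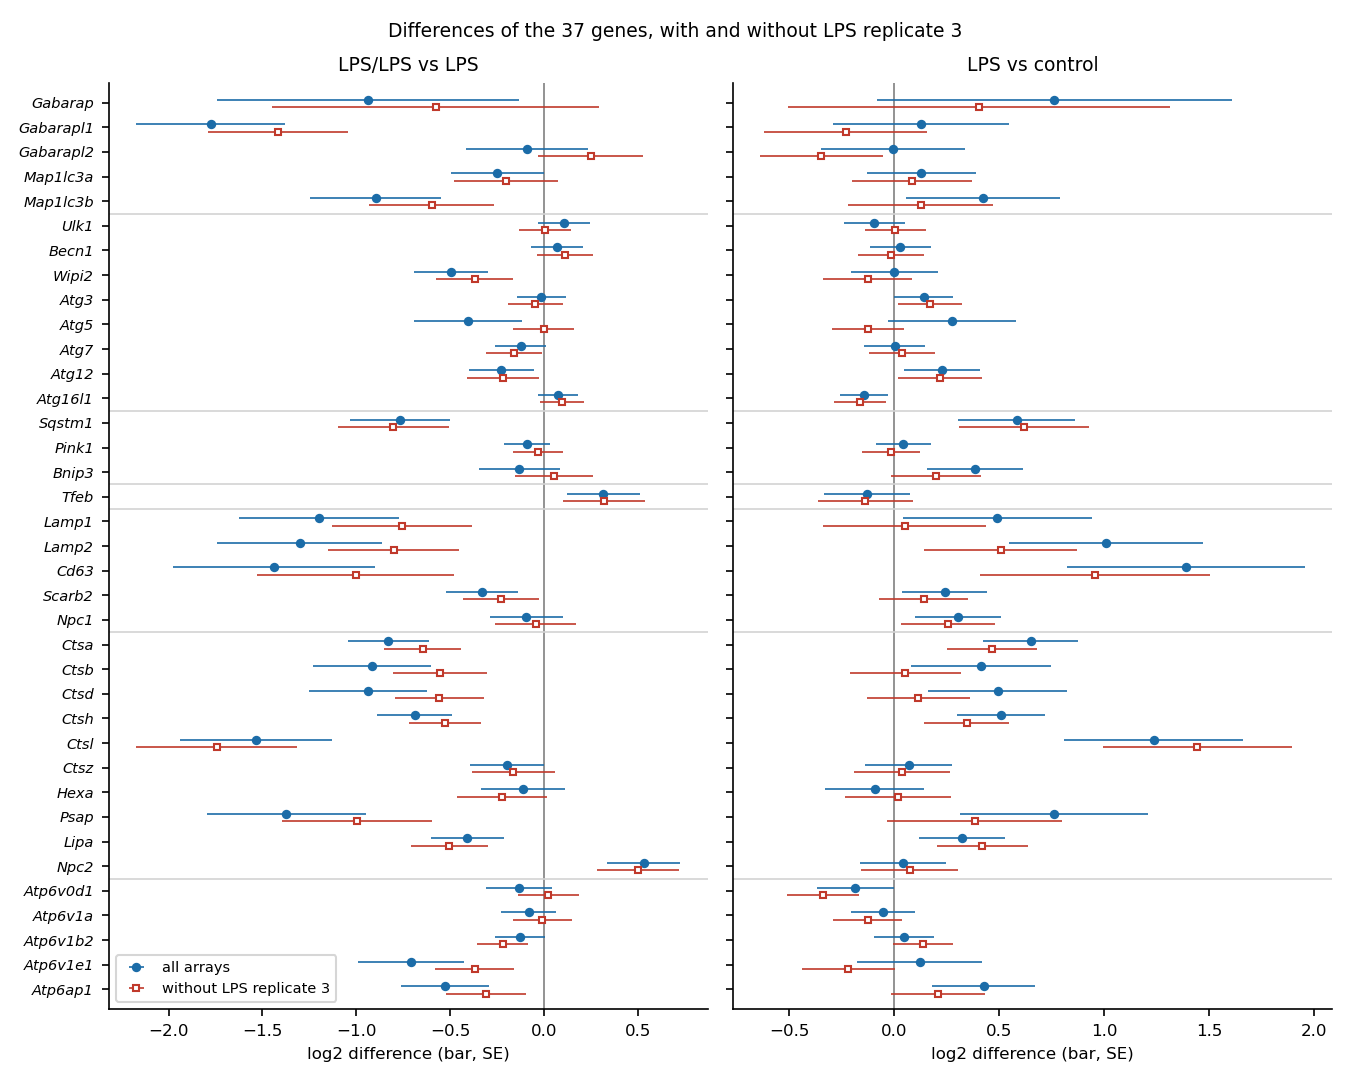
Log2 differences of the 37 genes by role for LPS/LPS minus LPS and LPS minus control, with all arrays and without LPS replicate 3; points are genes and bars the SE. Medians of LPS/LPS minus LPS are -0.33 with all arrays and -0.22 without that array, and of LPS minus control 0.23 and 0.08.

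In LPS against control, 5 lysosomal genes were higher after LPS before adjustment for multiple tests, and 0 of the autophagosome and pump genes were. This comparison shares the LPS arrays with the one above. Of the 37 genes, 30 had a positive difference, against 47.1% of genes tested, with a median of 0.23 against -0.02 over all genes. Limma called 0 of the 22180 genes (0.0%), while 1427 (6.43%) had an unadjusted p under 0.05. Of the 37, 0 were called, the lowest adjusted p was 0.635, and 5 were higher before adjustment, where 3.49% of genes tested were: Ctsl, Ctsa, Cd63, Ctsh and Lamp2. In 0 of the 37 did the LPS arrays all lie above the control arrays, which held for 1.55% of genes tested.

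By role, the median LPS minus control difference was 0.49 for membrane genes, 0.45 for hydrolases and lumenal proteins, 0.13 for autophagosome genes and 0.05 for the pump. These medians without LPS replicate 3 were 0.25, 0.23, 0.02 and, with the sign turned, -0.13 for the pump. Ctsl averaged 7.04 ± 0.65 in LPS and 5.80 ± 0.73 in control (SD, n = 4 each), a difference of 1.24 (SE 0.43, limma adjusted p = 0.635), and LPS and control overlapped through control replicate 1. Cd63 averaged 7.41 ± 0.95 in LPS and 6.03 ± 1.23 in control, a difference of 1.39 (SE 0.57, limma adjusted p = 0.719). Its control arrays were split, with replicates 1 and 4 at the level of the LPS arrays and replicates 2 and 3 far below. Lamp2 differed by 1.01 (SE 0.46, limma adjusted p = 0.768), Ctsa by 0.65 (SE 0.23, limma adjusted p = 0.640) and Ctsh by 0.51 (SE 0.21, limma adjusted p = 0.721). Gabarapl1 differed by 0.13, and by -0.23 without LPS replicate 3, and Tfeb by -0.13 and -0.14.

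Without LPS replicate 3, the median over the 37 was 0.08, 26 were positive, and 2 were higher before adjustment, where 3.38% of genes tested were: Ctsl, at 1.44, and Ctsa, at 0.47. Limma then called 5 genes (0.0225%), 0 of them among the 37. Cd63 and Lamp2 then differed by 0.96 and 0.51, and Ctsh by 0.34. Without LPS replicate 1, limma called 24 genes, 12 of the 37 had a p under 0.05 before adjustment, all higher, where 9.01% of genes tested had one in either direction, and the median was 0.29. Wide arrays taken alone gave a median of 0.29 and narrow arrays one of -0.04, and among narrow arrays Ctsh differed by -0.05. S1 and S2 markers had a median LPS minus control difference of -0.08, with 3 of the 12 lower before adjustment: Slc34a1 at -1.19, Slc22a6 at -1.29 and Miox at -0.99. Of the 22180 genes tested, 654 were lower at such a p. The median of these markers was -0.39 when LPS replicate 3 was left out, again with 3 lower, where 538 of the genes tested were. All 8 endothelial markers were higher in LPS than in control, at a mean level of 3.94 to 4.28 on the LPS arrays and 3.74 to 3.97 on the control arrays, with a median of 0.17; 7 of 8 were higher without LPS replicate 3, with a median of 0.20. Of these, Pecam1 (0.75) and Cdh5 (0.53) had a p under 0.05 before adjustment, and 1 of the 8 lay above background. The part of these markers in the result was not tested.

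In LPS/LPS against control, 0 of the genes passed the test across all genes, and Gabarapl1 and Npc2 had the lowest p of them. This comparison shares its arrays with the others. The median difference was -0.13, against 0.03 over all genes, and 29 of the 37 were negative, against 44.2% of genes tested. Limma called 2 genes (0.00902%) and 0 of the 37, whose lowest adjusted p was 0.866, and 1042 genes (4.7%) had an unadjusted p under 0.05. Of the 37, 2 were lower before adjustment, where 2.07% of genes tested were, and 1 was higher, where 2.62% were. In 2 genes, Gabarapl1 and Psap, the LPS/LPS arrays all lay below the control arrays, which held for 0.699% of genes tested. S1 and S2 markers were lower in all 12 cases, with a median difference of -0.59. Of these markers 7 were lower at a limma p under 0.05 before adjustment, where 2.07% of genes tested were. The mean level of the 12 was 4.50 to 5.22 on the LPS/LPS arrays and 5.24 to 6.14 on the control arrays. Of 8 endothelial markers 7 were higher, with a median of 0.19, and 2 of them had a limma p under 0.05 before adjustment. The endothelial mean level was 4.02 to 4.16 on the LPS/LPS arrays and 3.74 to 3.97 on the control arrays. The part of either list in these values was not tested.

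Gabarapl1 had the largest of these differences, -1.65 (SE 0.40, limma adjusted p = 0.866), with 4.65 ± 0.44 in LPS/LPS (SD, n = 5) and 6.30 ± 0.80 in control (SD, n = 4). Npc2 differed by 0.57 (SE 0.20, limma adjusted p = 0.987). Both Npc2 and Wipi2 lay below background, at means of 4.58 and 4.35. Wipi2 read 4.34, 4.41, 3.66, 3.97 and 3.83 in LPS/LPS, 4.35, 4.41, 4.92 and 4.47 in LPS, and 4.51, 4.24, 5.00 and 4.40 in control. LPS/LPS replicates 3, 4 and 5 lay below every other array, and its difference from control was -0.50 (SE 0.20, limma adjusted p = 0.987). Psap differed by -0.61 (SE 0.42, limma adjusted p = 0.987).

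All 5 pump genes, of which all but Atp6v1b2 lay below background, were again negative against control, with a median of -0.14. Atp6v1e1 read 4.49, 4.555, 4.13, 4.70 and 3.75 in LPS/LPS, 4.42, 4.70, 6.06 and 4.96 in LPS, and 5.08, 4.975, 4.90 and 4.70 in control. Its LPS/LPS and control arrays met only at 4.70, and the difference was -0.59 (SE 0.28, limma adjusted p = 0.987). Atp6v0d1 averaged 3.47 ± 0.23 in LPS/LPS (SD, n = 5) and 3.79 ± 0.15 in control (SD, n = 4), a difference of -0.32 (SE 0.18, limma adjusted p = 0.987). Role medians were -0.11 for the autophagosome, -0.09 for the membrane and -0.19 for hydrolases and lumenal proteins.

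**Figure D4:**
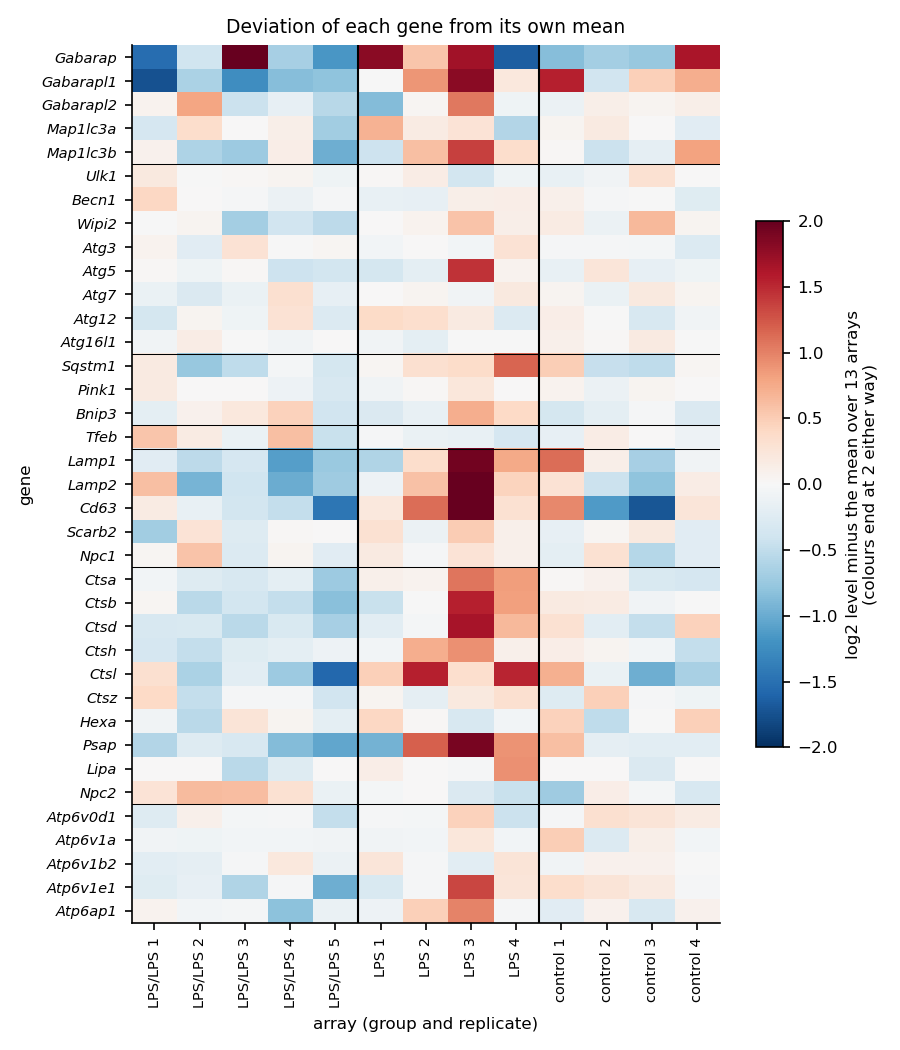
Log2 level of each of the 37 genes on every array minus that gene's mean over the 13 arrays, with genes in rows by role and arrays in columns ordered LPS/LPS, LPS and control. LPS replicate 3 has 28 of 37 genes above their own mean and LPS/LPS replicate 5 has 4.

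Over all 3 groups together, limma's F-test called 14 genes (0.0631%) and 0 of the 37, whose lowest adjusted p was 0.205. Before adjustment, 14 of the 37 had a p under 0.05, where 6.91% of genes tested did. The count without LPS replicate 3 was 6, where 5.75% of genes tested did, and it was 6 to 16 over the fits that each left out 1 array.

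Other genes of the same pathways, taken from lists that do not overlap the 37, were examined in the same fit, and 0 of any list were called in any comparison. Of 34 other autophagy genes measured, the median LPS/LPS minus LPS difference was 0.02, with 1 lower and 2 higher at a p under 0.05 before adjustment, where 4.49% and 4.13% of all genes tested were. The lower one was Rab7, the GTPase that directs fusion with the lysosome, at -1.69 (SE 0.38, limma adjusted p = 0.151), or -1.58 without LPS replicate 3, and it was -1.26 against control (SE 0.38, limma adjusted p = 0.949). The higher ones were Atg10, at 0.37, and Vps16, at 0.51. Leaving out LPS replicate 3 gave 2 lower and 2 higher. Against control, Rab7 and the cargo receptor gene Nbr1 (-0.63) were the 2 lower ones in LPS/LPS, where 2.07% of genes tested were lower. In LPS against control Fundc1 (-0.41) and Atg10 (-0.31) were the lower ones, where 654 of the 22180 genes tested were. Of 37 other lysosomal genes, the median was -0.17, with 5 lower and 0 higher, or a median of -0.01 with 4 lower and 0 higher without LPS replicate 3. The 5 were the protease legumain gene Lgmn at -1.35 (SE 0.34, limma adjusted p = 0.243), Gm2a at -0.68, Asah1 at -0.61, Man2b1 at -0.40 and Gnptab at -0.35. Set against control, 3 of these 37 were lower in LPS/LPS before adjustment, where 2.07% of genes tested were: Gm2a at -0.54, Asah1 at -0.51 and M6pr at -0.43. In LPS against control 1 of these 37 was lower at such a p, where 654 of the 22180 genes tested were. It was the acid sphingomyelinase gene Smpd1, at -0.68 (SE 0.24, limma adjusted p = 0.640).

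Of 12 other proton pump genes the median LPS/LPS minus LPS difference was -0.07. Atp6v0a1, at 0.47, was the 1 gene with a p under 0.05 before adjustment, where 4.13% of genes tested were higher. Without LPS replicate 3, 0 of the 12 had one. Against control, Atp6v1e2 was higher in LPS/LPS by 0.43 at such a p, and Atp6v1g1 and Atp6ap2 differed by -0.47 and -0.48. Of genes tested, 2.62% were higher and 2.07% lower at that p. Of 26 regulators around mTORC1, AMPK and the TFE factors the median LPS/LPS minus LPS difference was -0.09. Before adjustment 1 was lower, Mtor, and 1 higher, Foxo1 at 0.31, where 4.49% and 4.13% of genes tested were. Mtor, the kinase that holds TFEB in the cytoplasm when nutrients are plentiful, differed by -0.73 in LPS/LPS against LPS (SE 0.20, limma adjusted p = 0.294) and by 0.83 in LPS against control (SE 0.21, limma adjusted p = 0.411). Rragb and Fnip1 were the others with a p under 0.05 before adjustment in LPS against control, at 0.46 and 0.30. Of genes tested, 3.49% were higher at that p, and without LPS replicate 3 only Mtor of the 26 had one. None of the 26 had one in LPS/LPS against control. The mean level of Mtor, 4.72, lay just under the background level.

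Macrophages are rich in lysosomes, so their markers were read beside these results. The 15 macrophage and monocyte markers, 1 of them above background, averaged 3.89 to 4.07 on the LPS/LPS arrays, 3.86 to 3.99 on the LPS arrays and 3.90 to 3.91 on the control arrays. Their median differences were 0.06 for LPS/LPS against LPS, 0.05 for LPS against control and 0.12 for LPS/LPS against control. The 1 above background was Cx3cr1, at a mean of 5.73, while Adgre1, Csf1r and C1qa, at 3.91, 3.90 and 4.02, lay below it. Before adjustment, 2 of the 15 were higher in LPS/LPS than in LPS at a limma p under 0.05, where 4.13% of genes tested were. Laptm5, at 0.48, had the lowest p, and 1 was higher without LPS replicate 3. Against control, Mrc1 was higher in LPS/LPS, at 0.53, where 2.62% of genes tested were, and 0 were in LPS. In each comparison 0 were lower. The part of these markers in the results was not tested. Fibroblast and mural cell markers averaged 4.30 to 4.48 on the LPS/LPS arrays, 4.21 to 4.85 on the LPS arrays and 4.17 to 4.32 on the control arrays.

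**Figure D5:**
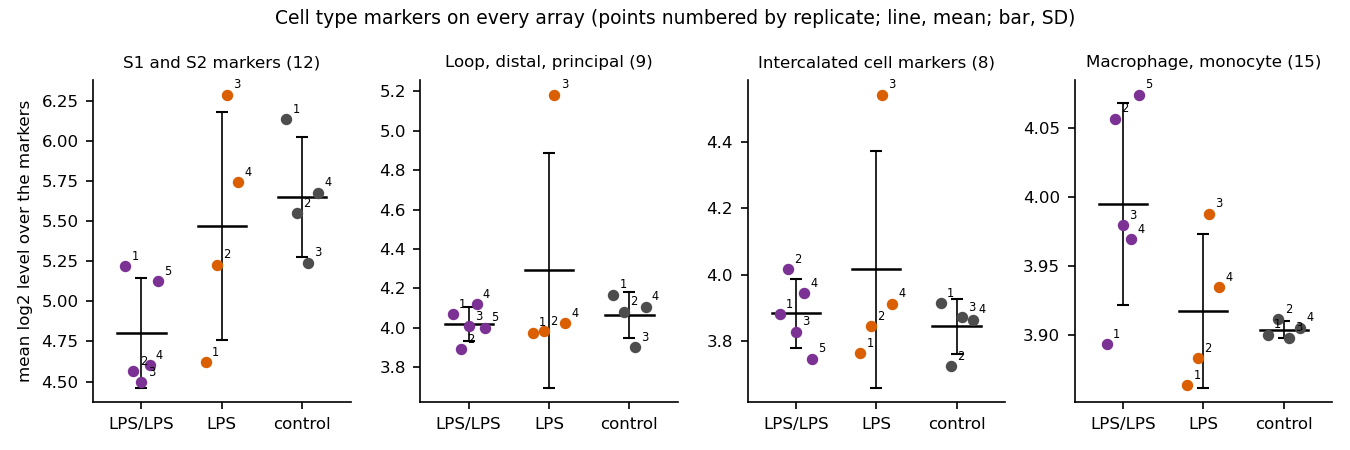
Mean log2 level of marker lists on every array, with LPS/LPS, LPS and control from left to right; points are arrays, horizontal lines group means, vertical bars SD, and each panel has its own axis. S1 and S2 markers lie at 4.50 to 5.22 in LPS/LPS, 4.62 to 6.29 in LPS and 5.24 to 6.14 in control, and LPS replicate 3 is the single high point for loop, distal and principal cell markers at 5.18.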

How the data were processed

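RNA of S1 segments was isolated with a PicoPure kit and labelled with a WT Pico kit for Affymetrix arrays, per the labels' protocols. Probe set values are on the log2 scale as the authors deposited them, and RMA and Partek 6.6 are named in the submitters' processing notes. Not given in the sources used here are the background step, the between-array normalization and the annotation build. The table held 41345 probe sets on 13 arrays. Of these, 23521 had 1 gene symbol in the platform annotation, 1814 had several and 16010 had none. Genes with several probe sets (1082) took the one with the highest mean, which left 22180 genes. The number of arrays limits the precision.

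All arrays entered 1 limma fit (limma 3.58.1, R 4.3.3, lmFit and eBayes, two-sided) with no covariates, and p-values were Benjamini-Hochberg adjusted over all genes. The fit was tested on simulated data with independent normal noise, which held no outlying arrays and no shared values. That test therefore cannot show how the fit handles such features in these data. The autophagy and lysosome genes and the other lists were chosen with earlier results of these data known. Named genes are, per comparison, the 5 measured genes with the lowest p, and Tfeb; others were named after their values were seen. Replicate numbers were not taken as pairs, since the labels state no pairing. Deviations of same-numbered arrays correlated at -0.351 to 0.215 and those of other between-group pairs at -0.33 to 0.54. Such correlations cannot decide whether samples were paired. Alternatives were leaving out each array, array weights, quantile normalization, median centring, replicate and spread blocks, and others given at the end.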

Additional observations from a re-analysis of the deposited data

Results flagged for a closer look

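In 12 of 141 sample groups tested (8.51%), 1 array lay far from the others of its group by Dixon's test, where chance gives about 1 in 20. Among autophagosome genes, Gabarap read 7.304 on control replicate 4, against 4.818 to 4.988 on the other control arrays. Becn1 read 4.094 on LPS/LPS replicate 1, against 3.562 to 3.694 on the others of its group. Atg3 read 4.422 on LPS replicate 4, against 4.084 to 4.14, and 3.856 on control replicate 4, against 4.089 to 4.115. Atg7 read 4.793 on LPS/LPS replicate 4, against 4.186 to 4.349.

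Among lysosomal genes, Psap read 6.246 on control replicate 1, against 5.432 to 5.456 on the other control arrays. Lipa read 4.06 on control replicate 3, where the other control arrays shared the value 4.367. Atp6v1a read 3.807 on LPS replicate 3, against 3.506 to 3.522. Atp6ap1 read 2.759 on LPS/LPS replicate 4, against 3.455 to 3.659.

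LPS/LPS replicate 5 was low in the mean over all 37 genes, at 4.139 against 4.433 to 4.514, and in the mean of the proton pump genes, at 3.76 against 3.966 to 4.037. LPS replicate 3 was high in the mean of the genes below background, at 4.295 against 3.99 to 4.017.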

How the results depend on the processing

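None of the named genes passed the threshold with all arrays, so that most stayed below it says little. Of 459 values of named genes under 13 alternatives and the 13 fits that each left out 1 array, 2 reversed, both within narrow arrays: Ctsh in LPS against control (-0.0456) and Psap in LPS/LPS against LPS (0.462). Psap passed without LPS replicate 1, so the genes called among the 37, 0 in every other setting, were 0 to 1 when arrays were left out in turn, in LPS/LPS against LPS and in the F-test. Sizes moved more: in LPS against control Ctsa ranged from 0.206 to 0.814 over the alternatives and Cd63 from 0.628 to 1.642, or to 1.847 on leaving out 1 array. The splits within wide and narrow arrays were added after seeing the data.

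The number of genes called in LPS/LPS against LPS, 14, was 2 with only those groups in the fit, 4 with the replicate block, 41 with array weights, 7 over all probe sets, 0 without moderation, 0 within wide and 3 within narrow arrays, and 5 to 96 on leaving out 1 array. The F-test's 14 became 2 with the replicate block, 41 with array weights, 0 over all probe sets, 0 without moderation, 0 within wide and 1 within narrow arrays, and 1 to 39 on leaving out 1 array. In LPS against control, 0 became 3 with the replicate block, 30 with array weights, 7 after quantile normalization, 3 among genes above background, 7 with a trended robust fit, 1 within narrow arrays, and 0 to 24 on leaving out 1 array. In LPS/LPS against control, 2 became 0 with only those groups, the replicate block, all probe sets, no moderation, and within wide or narrow arrays, 4 with the spread block or quantile normalization, 1 after median centring, and 0 to 3 on leaving out 1 array.

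The median over the 37 genes moved with the genes or arrays included. In LPS/LPS against LPS it was -0.926 among genes above background, a choice that the arrays compared helped to make, -0.512 within wide and -0.0541 within narrow arrays, and -0.433 to -0.222 on leaving out 1 array. In LPS against control it was 0.491 among those genes, and -0.0409 within narrow arrays, and 0.0839 to 0.295 on leaving out 1 array. In LPS/LPS against control it was -0.238 among them and -0.240 within wide arrays, and -0.169 to -0.0788 on leaving out 1 array. The causes were not tested. Replicate numbers were treated only as names here (mean correlation of same-numbered deviations -0.027, of other pairs 0.008). With them as a block, which drops LPS/LPS replicate 5, 0 of the 37 passed. Levels near background limit the 21 dim genes.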
